A study of Mus musculus with 4 samples.

Results

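The pluripotency transcription factors examined here are 10 genes, taken with all of their probe sets that the platform annotation assigns to a single gene. They were represented by 17 of the 45037 probe sets that are not array controls. Mouse blastocysts were collected on day 4, at 96 hours, as diploid and tetraploid embryos of parthenogenetic origin and as diploid and tetraploid embryos from fertilization, with 1 Affymetrix array for each of these 4 conditions and 30 embryos pooled for each array. Parthenogenetic embryos carry maternal chromosomes only, and tetraploid embryos of either origin were obtained by fusion. The series uses each tetraploid pool as a pseudoreplicate of the diploid pool of its origin, so there are no replicates within a condition. Mouse strain and activation agent are not given in the sources used here.

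Pluripotent cells of the inner cell mass are maintained by a circuit of transcription factors that activate their own genes and each other's. Pou5f1 (OCT4), Sox2 and Nanog form its core, with OCT4 and SOX2 binding side by side at composite DNA elements. Sall4 and Sall1 encode zinc finger proteins that work with the core, and Klf2, Klf4, Esrrb, Tfcp2l1 and Zfp42 (REX1) belong to the naive state of the pre-implantation epiblast. Several of these genes are also active outside the epiblast of the blastocyst, among them Sox2, Klf4, Esrrb, Tfcp2l1 and Sall4.

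A composite element of this kind can be read in the Nanog promoter. The RefSeq promoter table (GRCm38.p6) held 14 windows for 9 of the 10 genes, and the 250 bases before each start were searched on both strands for ATGCAAA (most of the octamer bound by OCT4), CATTGT (a SOX site) and AAGGTCA (bound by ESRRB). ATGCAAA was found in 4 windows of 3 genes, Nanog, Sox2 and Zfp42, and in 4.12% of all 32851 windows. CATTGT was found in 3 windows, of Nanog and Pou5f1, against 10.7% of all. Both motifs together were found in the 2 overlapping windows of Nanog and in 0.642% of all windows. AAGGTCA was in 0 of the 14 windows and in 4.08% of all. A match describes these letters only and says nothing about binding in these embryos. The windows with ATGCAAA are shown because the signals of Nanog and Zfp42 did not overlap between the origins, whereas those of Sox2 did. They lie at chr6:122707239-122707488 on the plus strand (Nanog, the more upstream of its starts), chr3:34649745-34649994 on the plus strand (Sox2) and chr8:43307010-43307259 on the minus strand (Zfp42), and capitals mark ATGCAAA or CATTGT on either strand.
Nanog: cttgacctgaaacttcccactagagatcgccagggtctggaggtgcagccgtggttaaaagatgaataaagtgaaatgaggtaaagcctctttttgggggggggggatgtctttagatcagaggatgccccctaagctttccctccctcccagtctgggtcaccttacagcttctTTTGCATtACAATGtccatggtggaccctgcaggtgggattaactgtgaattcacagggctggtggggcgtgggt
Sox2: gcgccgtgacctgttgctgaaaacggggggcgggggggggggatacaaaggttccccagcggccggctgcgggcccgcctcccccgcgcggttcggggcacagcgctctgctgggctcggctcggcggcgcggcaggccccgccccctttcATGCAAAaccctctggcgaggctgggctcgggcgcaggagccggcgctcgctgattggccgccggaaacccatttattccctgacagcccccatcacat
Zfp42: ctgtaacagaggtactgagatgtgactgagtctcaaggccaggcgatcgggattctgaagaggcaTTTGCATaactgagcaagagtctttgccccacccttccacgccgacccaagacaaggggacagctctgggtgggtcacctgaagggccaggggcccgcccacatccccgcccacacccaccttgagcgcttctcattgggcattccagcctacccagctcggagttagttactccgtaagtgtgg

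Values are MAS5 signals, the linear brightness that the Affymetrix algorithm gives each probe set. The median signal ranged from 104 to 154 over the arrays. The control floor of an array, the 95th percentile of 27 probe sets for bacterial transcripts, ranged from 99.7 to 150.3. A probe set was tested when its signal reached the array median on at least 2 of the 4 arrays, which kept 23746 probe sets. Of the members' probe sets, 13 passed this filter and 4 did not, and each of the 10 genes kept at least 1. A gene is represented by its brightest kept probe set, and differences are on the scale of log2(signal + 10). Below, signals are given for parthenogenetic before fertilized embryos and, within each origin, for diploid before tetraploid. The parthenogenetic tetraploid array had the highest ratio of 3' to middle signal for the controls Actb (9.28, against 5.13 to 7.55) and Gapdh (5.22, against 3.72 to 4.08), a ratio that rises when transcripts are shortened. Its ratios of 3' to 5' signal lay within the range of the other arrays, with Actb at 127 (others 108 to 137) and Gapdh at 24.3 (others 18.98 to 27.3).

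Sall1, Nanog and Zfp42 were lower, and Pou5f1 was higher, on both parthenogenetic arrays than on both fertilized arrays. The other 6 genes overlapped between the origins. Sox2, Klf2, Klf4 and Esrrb were lower on both tetraploid than on both diploid arrays, with Sox2 and Klf4 lowest on the parthenogenetic tetraploid array. For Esrrb this held for its brightest probe set only. None of the 10 genes passed limma's adjusted threshold for origin, for ploidy or for the parthenogenetic tetraploid array against the other 3, with 0 of 13 member probe sets called in each. Over all kept probe sets, 0.173% were called for origin (0.105% lower and 0.0674% higher in parthenogenetic embryos), 0% for ploidy and 0.274% for the parthenogenetic tetraploid array (0.248% lower and 0.0253% higher). At an unadjusted p under 0.05 the counts were 2, 2 and 5 of the 13 probe sets, beside 8.86%, 6.00% and 12.0% of all. In pools of whole embryos, fewer cells of a type and less RNA per cell cannot be told apart.

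**Figure D1:**
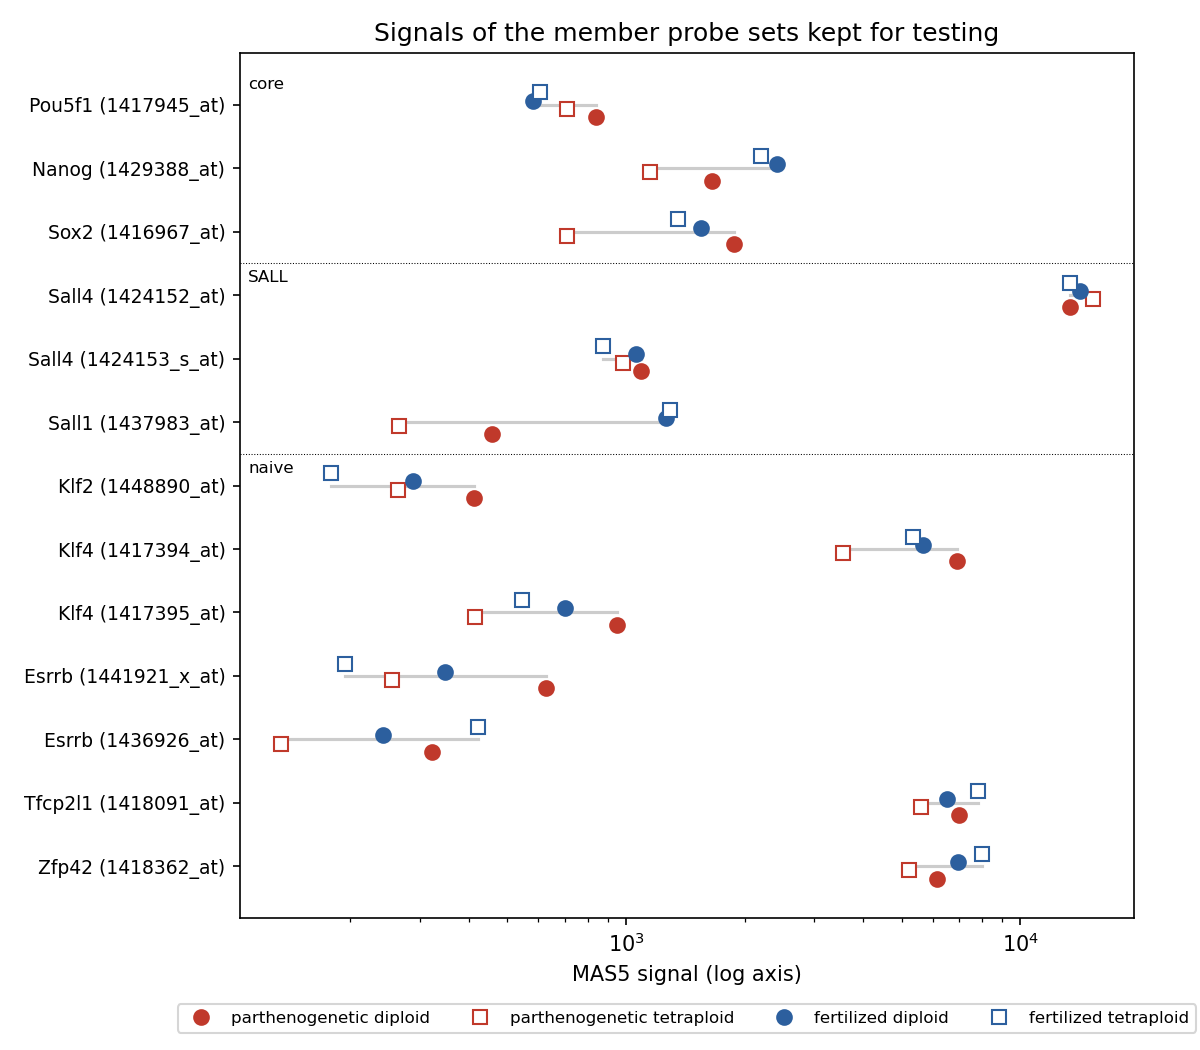
MAS5 signal (log axis) of the 13 member probe sets kept for testing, with 1 point per array; grey lines span the 4 arrays, and levels of different probe sets are not comparable. The Sall1 signals of both parthenogenetic arrays (457 and 265) lie far to the left of the fertilized ones (1262 and 1291), and the open red square of the parthenogenetic tetraploid array is leftmost for Sox2 and for both Klf4 probe sets.

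The core factors did not share a pattern. Pou5f1, the POU-domain factor required to form the inner cell mass, gave signals of 837 and 708 on the parthenogenetic arrays, diploid first, and of 581 and 604 on the fertilized arrays. Both parthenogenetic values lay above both fertilized values, while the ploidies overlapped. The fitted difference of parthenogenetic minus fertilized was 0.37 ± 0.34 (log2, with its SE over 2 against 2 arrays; limma adjusted p 0.75, 95% interval -0.37 to 1.11). It was 0.52 in the diploid pair and 0.23 in the tetraploid pair.

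Nanog, the homeodomain factor that marks the epiblast as it separates from the primitive endoderm, differed in the opposite direction. Its signals were 1651 and 1154 in parthenogenetic against 2409 and 2201 in fertilized embryos. The groups of origin did not overlap, and the parthenogenetic tetraploid array was the lowest of the 4. The fitted difference was -0.73 ± 0.31 (limma adjusted p 0.54, unadjusted 95% interval -1.40 to -0.07), made up of -0.54 in the diploid pair and -0.93 in the tetraploid pair. Without the parthenogenetic tetraploid array the difference was -0.48 (adjusted p 0.78), which changes its size by more than 1.5 times.

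Sox2, the HMG-box partner of OCT4, had its highest signal on the parthenogenetic diploid array (1877) and its lowest on the parthenogenetic tetraploid array (711), with 1546 and 1358 in fertilized embryos. The fertilized values lay inside the range of the parthenogenetic ones. Parthenogenetic minus fertilized was 0.28 in the diploid pair and -0.93 in the tetraploid pair, and the fitted difference of -0.32 ± 0.42 (limma adjusted p 0.83) became 0.37 (adjusted p 0.85) without the parthenogenetic tetraploid array. On that array Sox2 lay 0.93 below the lowest of the other 3, which spanned only 0.46. The difference of that array from the other 3 was -1.14 ± 0.36 (limma adjusted p 0.23, unadjusted 95% interval -1.92 to -0.37).

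The SALL zinc finger genes were the most stable and the most variable of the members. Sall4, needed for inner cell mass growth, had signals of 13382 and 15290 on the parthenogenetic arrays and 14157 and 13367 on the fertilized arrays. These values spread with an SD of 0.09 on the log2 scale, against a median of 0.46 for all kept probe sets. The origin difference was 0.06 ± 0.23 (limma adjusted p 0.96, 95% interval -0.44 to 0.56), and it was -0.24 when the arrays were scaled to a common median, a scaling that moves the median of all probe sets from 0.01 to -0.29. A dimmer probe set had 1095, 983, 1059 and 876 and an origin difference of 0.11 ± 0.32.

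Sall1, a relative of Sall4 that is known to interact with NANOG and SOX2 in embryonic stem cells, had signals of 457 and 265 on the parthenogenetic arrays and 1262 and 1291 on the fertilized arrays. The groups were well separated, and the fertilized arrays lay within 0.03 of each other. The fitted value for Sall1 was 3.59-fold lower in parthenogenetic embryos but missed the threshold (-1.84 ± 0.37, limma adjusted p 0.125, unadjusted 95% interval -2.65 to -1.03). By brightest probe set it was the only member at least 2-fold apart in the diploid pair (-1.44), where 9.75% of kept probe sets were that much lower and 10.7% higher. It was also the only one in the tetraploid pair (-2.24), where 11.7% were that much lower and 15.0% higher. Its difference passed the threshold with ploidy as a block (limma adjusted p 0.025), and also when the parthenogenetic diploid array was left out (-2.22, adjusted p 0.0015). The latter sets the lone parthenogenetic tetraploid array against the fertilized pair, assumes that it varies like them, and rests on the spread of that pair alone. The adjusted p ranged from 0.0015 to 0.43 over the alternatives that give one, and the difference was -1.46 (adjusted p 0.058) without the parthenogenetic tetraploid array. Its other probe set lay at or below the control floor on all 4 arrays (25.7 and 18.8 against 46.3 and 69.6) and was not tested.

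**Figure D2:**
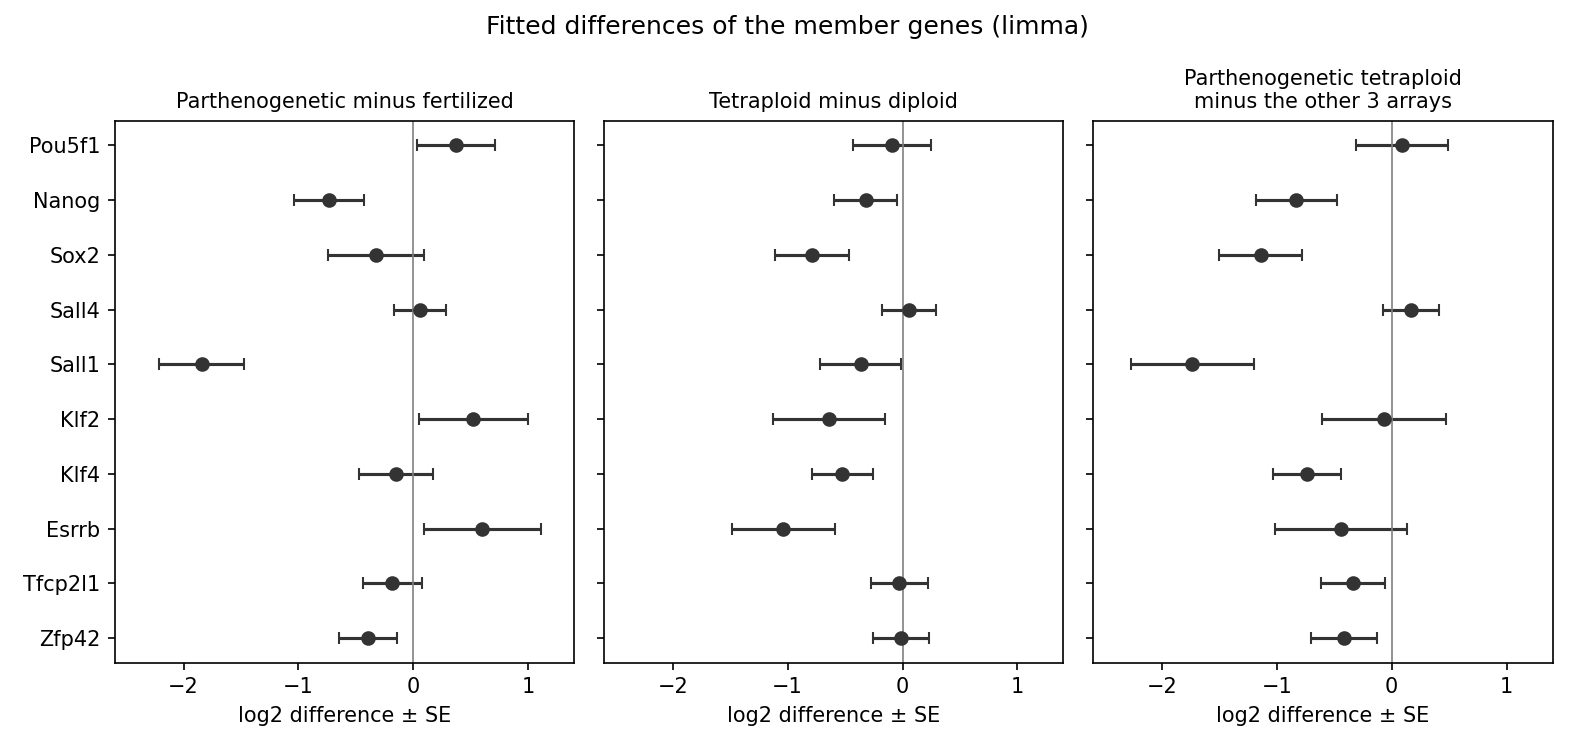
Fitted log2 differences of the 10 genes with their standard errors (limma, n = 4 arrays), for parthenogenetic minus fertilized, tetraploid minus diploid, and the parthenogenetic tetraploid array minus the other 3. Sall1 lies lowest in the left panel at -1.84, Esrrb lowest in the middle panel at -1.04, and Sall1 (-1.74) and Sox2 (-1.14) lowest in the right panel, where the left and right panels share arrays.

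Among the naive factors, the KLF genes were highest on the parthenogenetic diploid array. Klf2, a zinc finger factor of the naive circuit, had signals of 412 and 265 on the parthenogenetic arrays and 289 and 178 on the fertilized arrays. Both tetraploid arrays were below both diploid arrays, with tetraploid minus diploid at -0.62 in the parthenogenetic and -0.67 in the fertilized pair. Each parthenogenetic array was above the fertilized array of its ploidy, by 0.50 and 0.55. The ploidy difference was -0.64 ± 0.49 (limma adjusted p 0.87) and the origin difference 0.52 ± 0.47 (adjusted p 0.75).

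Klf4, which can replace Klf2 in the naive circuit, had signals of 6912 and 3550.1 on the parthenogenetic arrays and 5674 and 5335 on the fertilized arrays. The parthenogenetic tetraploid value lay 0.59 below the lowest of the other 3, whose range was 0.37. The origin difference had opposite signs in the ploidies, 0.28 in diploid and -0.59 in tetraploid embryos. The parthenogenetic tetraploid array differed from the rest by -0.74 ± 0.30 (limma adjusted p 0.34). A dimmer probe set had 949, 414, 699 and 547, and -0.77 ± 0.42 for that array. It did not set the array apart in the same way, since the array lay 0.39 below the lowest of the other 3, whose range was 0.78, and ploidy held 77.3% of its sum of squares.

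Esrrb, an orphan nuclear receptor of the naive network, was measured differently by its probe sets. The brightest, which carries the x suffix that Affymetrix gives to probes shared with other transcripts, had 626 and 255 on the parthenogenetic arrays and 348 and 194 on the fertilized arrays. It was lower on both tetraploid arrays, with a ploidy difference of -1.04 ± 0.45 (limma adjusted p 0.81) and an origin difference of 0.60 ± 0.51. The second kept probe set had 322, 133, 241 and 420.5, with the parthenogenetic tetraploid value below the control floor. Its origin difference was -0.59 ± 0.54 and its ploidy difference -0.22 ± 0.56, so the probe sets disagree on origin. Nor was the second lower on both tetraploid arrays, since it was highest on the fertilized tetraploid array. Both probe sets were lower on the parthenogenetic tetraploid than on the parthenogenetic diploid array, with differences of -1.26 and -1.22. The remaining probe set, with 105, 199, 59.9 and 68.4, was above the floor on the parthenogenetic tetraploid array only and was not tested.

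Tfcp2l1, a naive factor downstream of LIF signalling, had signals of 7010.2 and 5607 on the parthenogenetic arrays and 6502.5 and 7795 on the fertilized arrays. The origins overlapped, and the origin difference was -0.18 ± 0.26 (limma adjusted p 0.84). Its 2 other probe sets were at or below the control floor on all 4 arrays.

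Zfp42, a widely used marker of naive cells and of early embryos, had 6140.3 and 5231 in parthenogenetic against 6944 and 7999 in fertilized embryos. The origins did not overlap, but the difference was small at -0.39 ± 0.25 (limma adjusted p 0.65, 95% interval -0.94 to 0.15). It was -0.18 in the diploid pair and -0.61 in the tetraploid pair.

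Read against all kept probe sets, the share of members that split by origin was close to the background. With 4 arrays, the variation of a gene divides into an origin, a ploidy and an origin-by-ploidy contrast, and the largest share falls on origin exactly when the origins do not overlap. Origin held 92.1% of the sum of squares of Sall1, 82.4% of Pou5f1, 79.4% of Nanog and 76.7% of Zfp42. These are 4 of 10 genes, and 40.5% of all kept probe sets also varied most by origin. Parthenogenetic embryos were lower in 3 of the 10 and higher in 1, where 19.0% and 21.5% of all probe sets did not overlap in these directions. Ploidy held the largest share for Esrrb (72.3%), Klf2 (60.2%), Sox2 (57.1%) and Klf4 (56.4%), again 4 of 10 genes, beside 31.0% of all. Tetraploid arrays were lower in each of these, as in 17.0% of all probe sets, and higher in 0 members, beside 14.0%. The second kept Esrrb probe set instead had 3.49% in ploidy and 71.3% in origin by ploidy. In the parthenogenetic pair, by brightest probe set, Sox2 (-1.39) and Esrrb (-1.26) were at least 2-fold lower in tetraploid embryos and 0 members were higher. With the second Esrrb (-1.22) and the dimmer Klf4 probe set (-1.18), 4 of the 13 kept probe sets were that much lower. Of all probe sets, 12.2% were that much lower and 11.1% higher. In the fertilized pair no member differed this much, beside 10.3% lower and 7.05% higher. The origin-by-ploidy contrast led in Sall4 (75.4%) and Tfcp2l1 (71.1%), and in 28.5% of all. The dimmer Sall4 probe set instead had 75.5% in ploidy and 5.82% in origin by ploidy. A gene changed on 1 array alone would have 33.3% in each contrast. Sox2 had 9.64%, 57.1% and 33.3% for origin, ploidy and origin by ploidy, and Klf4 had 4.68%, 56.4% and 38.9%. Both were lowest on the parthenogenetic tetraploid and highest on the parthenogenetic diploid array.

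**Figure D3:**
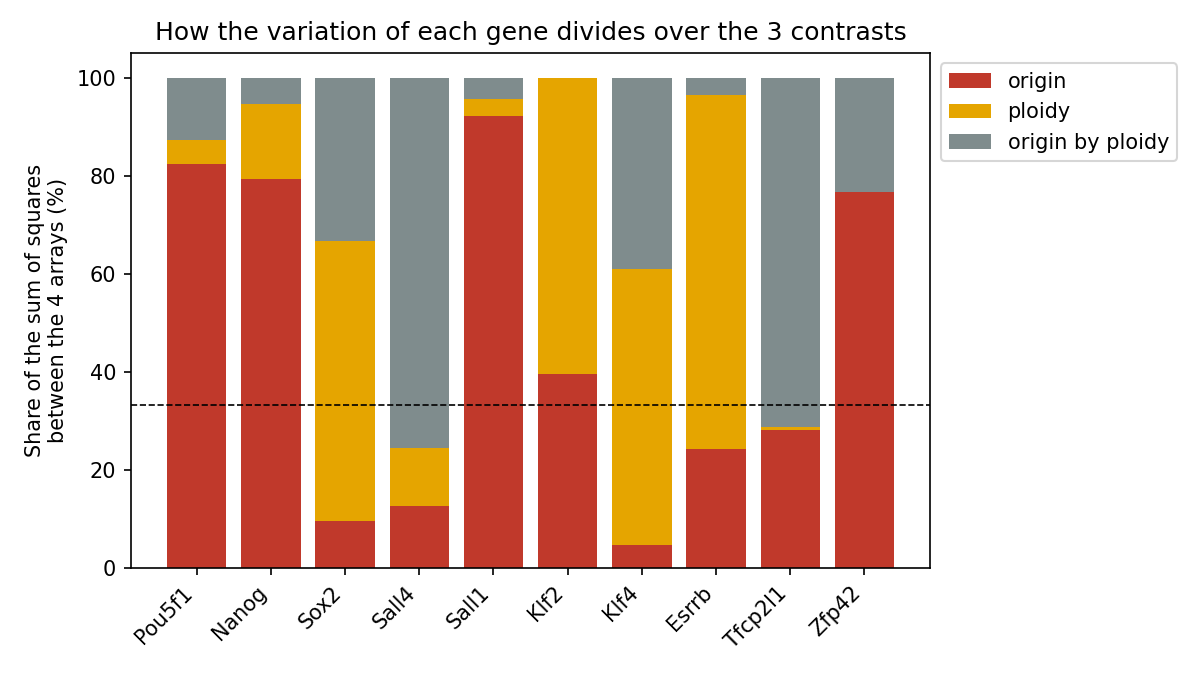
Share of the sum of squares between the 4 arrays (percent) that lies in the origin, ploidy and origin-by-ploidy contrasts, for the probe set standing for each gene; the dashed line is the 33.3% that each contrast would hold if 1 array alone differed. Origin fills most of the bars of Sall1 (92.1%), Pou5f1 (82.4%), Nanog (79.4%) and Zfp42 (76.7%), while ploidy leads for Sox2, Klf2, Klf4 and Esrrb.

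The parthenogenetic tetraploid array was the lowest of the 4 for 6 of the 10 genes (Nanog, Sox2, Sall1, Klf4, Tfcp2l1 and Zfp42), and 30.3% of all kept probe sets were lowest on it. The lowest value was on the fertilized tetraploid array for 3 genes, the fertilized diploid for 1 and the parthenogenetic diploid for 0, beside 24.7%, 23.4% and 21.6% of all. The highest value was on the parthenogenetic diploid array for 5 genes, on the fertilized tetraploid for 3 and on the fertilized diploid and the parthenogenetic tetraploid for 1 each. Of all probe sets 24.2%, 17.8%, 26.2% and 31.8% were highest on these arrays. The parthenogenetic tetraploid array lay below the other 3 arrays by more than their whole range for Sox2 and Klf4. These are 2 of 10 genes beside 13.3% of all probe sets, and the measure was chosen after the values were seen. The array also lay below for the second kept Esrrb probe set (0.81, with a range of 0.78), giving 3 of 13 kept probe sets. That Esrrb value was below the control floor. The parthenogenetic diploid, fertilized diploid and fertilized tetraploid arrays stood below in this way for 7.09%, 7.69% and 8.22% of all. Sall4 was above the other 3 by more than their range on the parthenogenetic tetraploid array (0.11, with a range of 0.08). Of all probe sets 6.83% were above in this way on it, and 3.79%, 4.64% and 3.11% on the other arrays in the same order. The dimmer Sall4 probe set was not above in this way. The origin difference changed sign between the ploidies for 4 genes (Sox2, Sall4, Klf4 and Tfcp2l1), beside 43.1% of all. It did so for 6 of the 13 kept probe sets, among them the second of Esrrb but not the dimmer one of Sall4. Core and naive medians had the same sign as each other within a pair, but both changed sign between the pairs. Single members did not all change sign (Pou5f1 and Klf2 were above 0 in both pairs, Nanog and Zfp42 below 0 in both). The median of parthenogenetic minus fertilized in the diploid pair was 0.28 for the 3 core and 0.28 for the 5 naive factors. In the tetraploid pair it was -0.93 for core and -0.47 for naive factors, beside 0.00 and 0.06 for all kept probe sets in the diploid and tetraploid pair. The fitted origin medians of -0.32 (core) and -0.15 (naive), beside 0.01 for all probe sets, became 0.37 and 0.33, beside 0.05, without the parthenogenetic tetraploid array. In both cases these medians are the values of Sox2 (core) and Klf4 (naive). The other core and naive factors kept the sign of their origin difference without that array, among them Nanog (-0.48) and Pou5f1 (0.49). That array differed from the other 3 by a median of -0.83 for core and -0.42 for naive factors, beside 0.05 for all. For ploidy the medians were -0.32 (core) and -0.52 (naive), beside -0.04. The difference between core and naive factors was not tested, and counting Sall4 and Sall1 as core left the core medians at -0.32, -0.32 and -0.83 for origin, ploidy and the parthenogenetic tetraploid array.

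**Figure D4:**
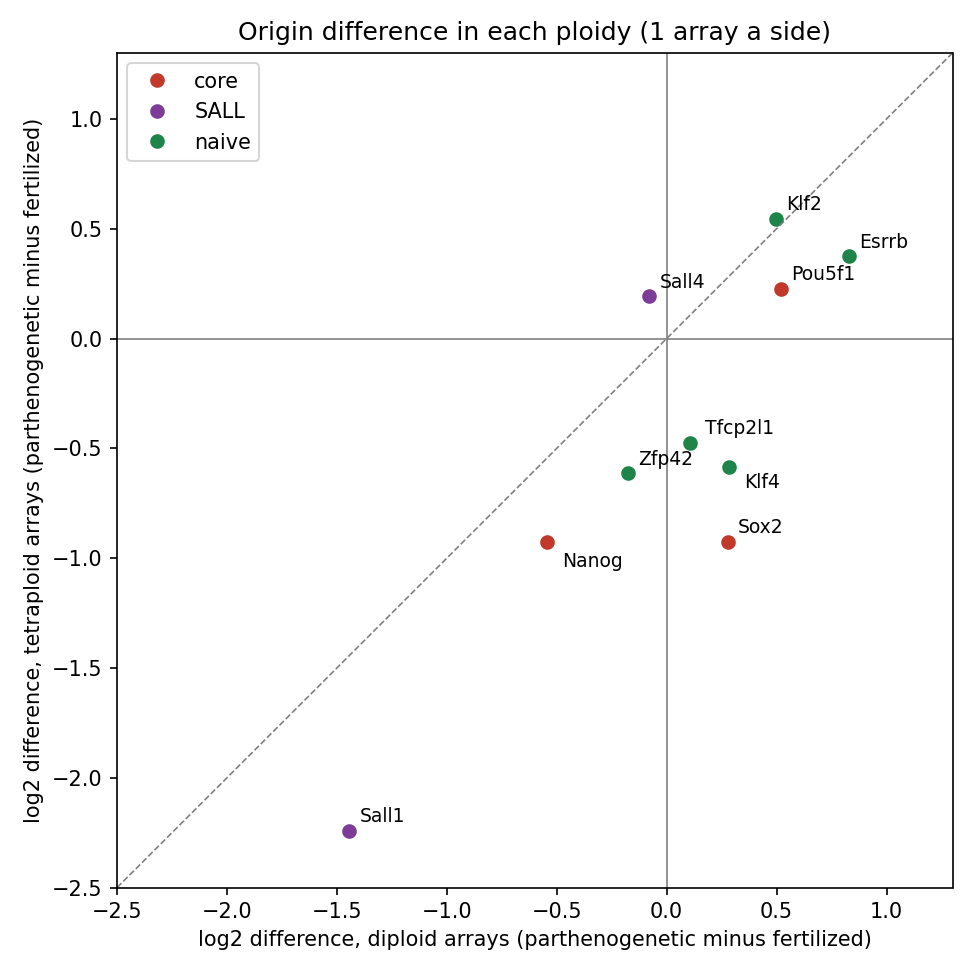
Log2 difference of parthenogenetic minus fertilized for the 10 genes in the diploid pair (horizontal) and the tetraploid pair (vertical), 1 array a side; the dashed line marks equal differences. Sall1 (-1.44 and -2.24), Nanog and Zfp42 are below 0 in both pairs, whereas Sox2 (0.28 and -0.93), Klf4 and Tfcp2l1 are above 0 in the diploid and below 0 in the tetraploid pair.

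Further lists held other pluripotency factors, targets and inner cell mass genes, genes of LIF signalling and genes of the post-implantation epiblast. Together they gave 0 calls in any of the 3 comparisons. Of 41 listed genes 35 were tested, and 23 were lower by value in the parthenogenetic arrays, as were 11654 of all 23746 probe sets, with 4, 6 and 6 at an unadjusted p under 0.05 for origin, ploidy and the parthenogenetic tetraploid array (8.86%, 6.00% and 12.0% of all). On the parthenogenetic tetraploid array 24 were lower than on the other 3 (median -0.39), as were 11166 of all probe sets, and 20 were at their lowest, beside 30.3% of all. Among 11 tested targets and inner cell mass genes, 10 were lower by value in the parthenogenetic arrays (median -0.52), and 9 were lowest on the parthenogenetic tetraploid array. The 13 other pluripotency factors had an origin median of -0.09 and the 7 genes of LIF signalling one of -0.29, with 7 and 4 lower. The 4 post-implantation genes had one of 0.41, with 2 lower.

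For origin, the extremes of these lists were Lefty1, a NODAL inhibitor (-1.30 ± 1.16), and the RNA-binding protein gene Lin28a (-0.91 ± 0.44) at the low end. At the high end were the X-linked nuclear receptor gene Nr0b1 (1.44 ± 0.64) and the zinc finger gene Zic2 (2.09 ± 1.03), with limma adjusted p from 0.56 to 0.74. A second probe set of Lin28a differed by 0.29. For ploidy they were Lefty1 (-2.21) and Prdm14 (-1.11) against Lin28a (0.99) and Zic2 (1.21), with adjusted p from 0.74 to 0.88. Prdm14, a repressor of differentiation that sustains the naive state, had signals of 831 and 168 on the parthenogenetic arrays and 491 and 503 on the fertilized arrays. The parthenogenetic tetraploid array differed from the other 3 by -1.76 ± 0.45 (limma adjusted p 0.13). Lefty1 was the lowest on that array at -2.54 ± 1.20, and the POU factor gene Pou3f1 (1.60 ± 0.74) and Zic2 (1.89 ± 1.26) were the highest. Lefty1, Nr0b1, Zic2 and Pou3f1 were each above the control floor on only 2 of the 4 arrays, so their fitted differences include signals at or below it.

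Fgf4, the growth factor gene activated by OCT4 and SOX2 together, was singled out after its values were seen. Its brightest probe set was highest and lowest on the same arrays as Sox2. The signals were 2167 and 683 on the parthenogenetic arrays and 1644 and 1875 on the fertilized arrays. The parthenogenetic tetraploid array differed from the rest by -1.45 ± 0.35. Its other kept probe sets did not share this order of arrays. The brighter, with 1652, 692, 1814 and 1254, was highest on the fertilized diploid array and gave -1.16. The dimmer, with 168, 187, 144 and 106, was highest on the parthenogenetic tetraploid array and gave 0.43.

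Markers of the other blastocyst lineages differed in their patterns. All 9 trophectoderm markers were above the control floor on every array. Their summed signal, to which bright probe sets contribute most, was 95529 on the parthenogenetic tetraploid array and 83791 to 89781 on the others. The markers were split, with 4 lower and 5 higher by value on that array than the mean of the other 3 (median 0.11), and 3 lowest on it. The 8 primitive endoderm markers summed to 19669 on the parthenogenetic tetraploid array and to 34249 to 42379 on the others, and all 8 had lower values on it than the mean of the other 3 (median -0.89, 0 called). Dab2, an endocytic adaptor of the primitive endoderm that is named outside the rule for the lists, had 7852 there against 17998, 18194 and 16945 (-1.17 ± 0.25). Its other kept probe sets gave -0.72, -0.74 and -1.91 for that array. For origin, 6 of the 8 endoderm and 4 of the 9 trophectoderm markers were lower. Of other RNA sources, 0 of 4 fibroblast, 1 of 4 cumulus and 1 of 5 oocyte markers passed the filter. Their summed signals were 199.7 to 361 (fibroblast), 48.98 to 545 (cumulus) and 254 to 682 (oocyte), and Col1a1, Thy1, Amh, Fshr and Mos were at or below the floor on all 4 arrays. The part of these lineages, and of the 3' to middle ratios of the parthenogenetic tetraploid array, in the values above was not tested.

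**Figure D5:**
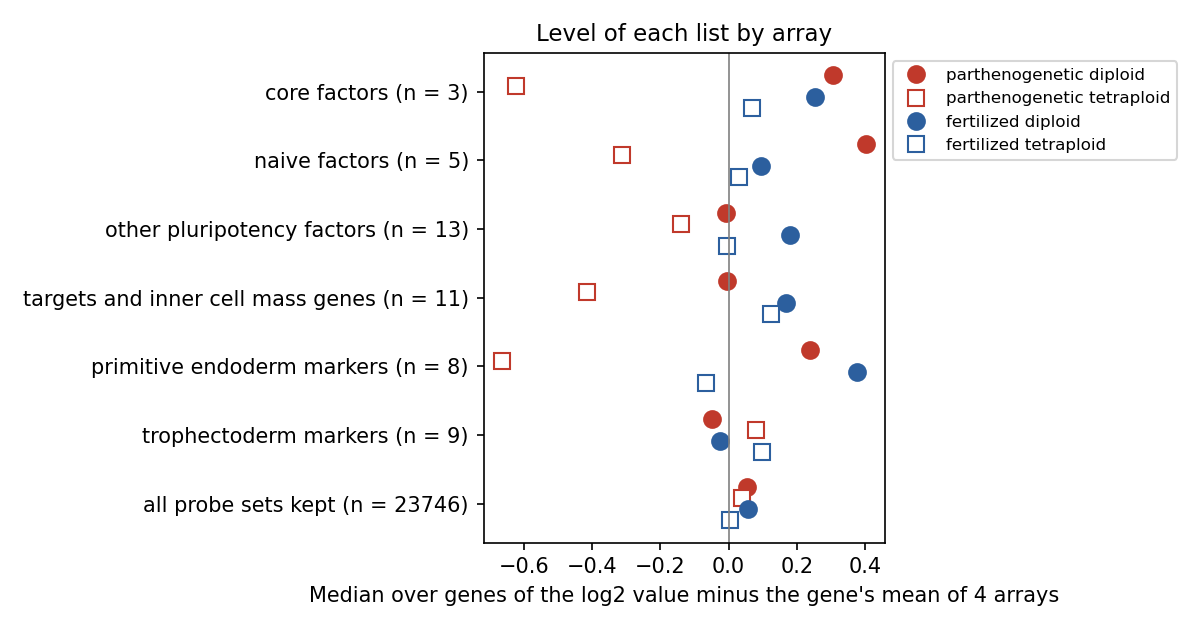
Level of each gene list by array, as the median over its genes of the log2 value minus the gene's own mean of the 4 arrays. The parthenogenetic tetraploid array is lowest for core factors (-0.62), naive factors (-0.31), other pluripotency factors (-0.14), targets (-0.42) and primitive endoderm markers (-0.66). It is not lowest for trophectoderm markers (0.08).

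The genes whose 4 signals most resembled those of the core factors were found among 11340 genes outside the lists by the distance between log2 values centred on their mean over the 4 arrays. For Pou5f1 they were Smarcal1 (distance 0.03), Sec23ip (0.05) and Wdr45b (0.05). Nanog was closest to Ppp1r14b (0.04), Exo1 (0.04) and Srp72 (0.05). The nearest to Sox2 were Hbp1 (0.05), Gm6211 (0.08) and Tbl2 (0.09). Over 4 arrays such likeness is common: 1956, 1118 and 450 genes lay within 0.5 of Pou5f1, Nanog and Sox2.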

How the data were processed

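RNA of the 4 pools was amplified in a two-cycle protocol and labelled with biotin, per the labels' protocols. The authors deposited 1 linear intensity for each probe set on each array, the signal of the MAS5 algorithm, which the submitters' processing notes name without a version. The mean signal, with 2% trimmed at each end, was 500.0 on every array. Of 45101 probe sets, 64 are array controls, 34958 have 1 gene symbol, 932 several and 9211 none, and 34754 of those with 1 symbol matched RefSeq by gene number.

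Differences were fitted on log2(signal + 10) over the 23746 kept probe sets with limma 3.58.1 in R 4.3.3 (eBayes with an intensity trend), adjusted by Benjamini-Hochberg with a threshold of 0.05. Origin was fitted without a ploidy term (2 residual degrees of freedom), ploidy with origin as a covariate (1), and the parthenogenetic tetraploid array against the other 3 (2), which assumes that the lone array varies like the rest. Origin and that array share arrays and are not independent. All p-values rest on the spread between these single pools. For origin this spread mixes ploidy, pool and technical error, and for the parthenogenetic tetraploid array it also includes origin. For ploidy it is the origin-by-ploidy contrast, mixed with pool and technical error. A pair of single arrays has no test. The fits were tested on simulated data.

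The members and lists were chosen with earlier results of these data known. All members are named. Of the other lists, the 2 highest and 2 lowest differences of each comparison over the lists together are named, and for each core factor the 3 genes nearest in profile. H1foo and Spp1 were not analysed here, and 1 further listed gene is not reported here. Alternatives were the pseudocount, the filter, the scaling, the intensity trend, the covariates, averaging of probe sets and leaving out each array.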

Additional observations from a re-analysis of the deposited data

Results flagged for a closer look

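For 4 of the 10 genes the difference of parthenogenetic minus fertilized had opposite signs in the diploid and the tetraploid pair of arrays, which 43.1% of all kept probe sets also showed. Between the pairs, Sox2 differed by -1.20 (0.28 in diploid, -0.93 in tetraploid embryos), Klf4 by -0.87 (0.28 and -0.59), Tfcp2l1 by -0.58 (0.11 and -0.47) and Sall4 by 0.27 (-0.08 and 0.19), all in log2. The second kept Esrrb probe set also changed sign (0.40 in diploid, -1.59 in tetraploid embryos). The dimmer Sall4 probe set did not (0.05 and 0.17). Each pair has 1 array a side, so these differences were not tested.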

How the results depend on the processing

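With 1 array a condition, the labels give no replicate numbers to pair. Pairing the origins within each ploidy (ploidy as a block) gave 142 called probe sets for origin in place of 41, and 1 member called (Sall1) in place of 0. For origin, 0 probe sets were called without the intensity trend (1850 at an unadjusted p under 0.05), and leaving out 1 array gave 46 to 715 called and 0 to 1 members (715 and Sall1 without the parthenogenetic diploid array, 175 without the parthenogenetic tetraploid array). The 41 calls were 16 higher and 25 lower, against 6 and 27 with a common median and 9 and 21 after quantile normalization. For ploidy, 19 probe sets were called with a pseudocount of 1, 73 without the filter, 12 with a common median and 55 after quantile normalization, in place of 0 (1424 at an unadjusted p under 0.05), with 0 members in each. For the parthenogenetic tetraploid array, the count of 65 was 21 without the filter, 4 with the filter at the 75th percentile, 435 with a common median, 0 without the trend (2274 at an unadjusted p under 0.05) and 1 to 715 when another array was left out (715 without the parthenogenetic diploid, which is the same fit as for origin, and 1 without the fertilized tetraploid array). Members called were 1 with a common median (Sall1) and 0 to 1 when an array was left out. With a common median, the medians for that array were -1.13 (core), -0.71 (naive) and -0.73 (all members), beside -0.24 for all probe sets. The median of all members for that array, -0.43, was -0.58 with the stricter filter, -0.52 after quantile normalization, -0.59 with probe sets averaged and -0.43 to -0.58 when an array was left out. The naive median for ploidy was -0.030 with the stricter filter, which leaves out Klf2 and Esrrb, and -0.62 to -0.089 when an array was left out.

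Signs turned for several genes. With a common median, Sall4 had -0.24 for origin and -0.13 for the parthenogenetic tetraploid array, Pou5f1 had -0.21 for that array, and Tfcp2l1 and Zfp42 had 0.049 and 0.066 for ploidy. With 1 array left out, the origin difference ranged from -1.02 to 0.37 for Sox2, -0.63 to 0.33 for Klf4 and -0.040 to 0.15 for Sall4, each turning sign without the parthenogenetic tetraploid array. For ploidy, values without a test ranged from -0.24 to 0.055 for Pou5f1, -0.76 to 0.032 for Sall1, -0.083 to 0.19 for Sall4, -0.32 to 0.26 for Tfcp2l1 and -0.23 to 0.20 for Zfp42. The origin difference of Esrrb ranged from -0.031 (without the parthenogenetic diploid array) to 1.23. For the parthenogenetic tetraploid array, Klf2 ranged from -0.37 to 0.21 (without the parthenogenetic diploid array) and Pou5f1 from -0.0057 (without the fertilized diploid array) to 0.25. Except where stated, the cause of these changes was not tested. Ploidy without 1 array leaves no residual degree of freedom and gives values without a test. The number of arrays, and the low signals of Klf2 and Esrrb over the control floor, limit the precision.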
